A study of Canis lupus familiaris with 18 samples.

Results

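The right atrium (RA) of dogs paced for 2 weeks was compared with the RA of control dogs, by setting 3 arrays of the paced group against 3 control arrays. These are 6 of the 18 arrays of the series. Of 43035 probe sets on the array, 111 control probe sets were left out, as were the 40% of the others with the lowest mean signal, whose upper limit was a log2 signal of 5.31. Of the 25752 probe sets tested, those with a single gene symbol were reduced to 1 per gene, the one with the highest mean signal over all arrays. This gave 10988 genes of the 15115 with a symbol of their own, and all 10988 are counted below.

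The series set control dogs against dogs with early and late heart failure (HF), in the RA and in the right ventricle (RV), with 3 arrays in each of 6 groups. The animals were adult mongrel or beagle dogs, and the labels do not say which array came from which breed. HF was produced by tachypacing the ventricles without interruption with a modified pacemaker. The titles give 2 weeks for early and 5 weeks for late HF, and the protocol gives ranges of 2 to 3 and 5 to 6 weeks. The labels give no pacing rate, age in years, sex or procedure for the controls. A small piece of each chamber was frozen after death, so each value is that of the mixed tissue. The labels call the replicates biological but name no animal, so the p-values speak of the spread among these arrays only. In such tissue, a change in the number of cells of a type and a change in RNA per cell cannot be told apart.

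Rapid ventricular pacing is a long-used way to produce congestive HF in dogs. The atria are not the paced chamber, but they are stretched as filling pressures rise, and paced dogs are known for atrial fibrosis and for atrial fibrillation. Fibrosis is laid down by activated fibroblasts, which secrete collagens and the matricellular proteins that organise them. Macrophages and monocytes accumulate in the same tissue, while myocytes are known to change their contractile, ion channel and mitochondrial genes.

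The RA label was checked against chamber markers. The atrial light chain genes MYL4 (13.88 to 14.05) and MYL7 (13.84 to 14.08) were bright on all 6 arrays, and the atrial secreted protein DKK3 lay at 12.21 to 12.76 against a mean of 6.82 in RV controls. The ventricular light chain MYL2 averaged 14.15 in RV controls, above all 6 RA arrays. Signals are log2 values of a probe set, and one gene's signal is not comparable with another's. RNA quality was read from the gap between 3' and 5' control probe sets. For GAPDH it was 1.15 to 1.61 in controls and 1.29 to 1.62 at 2 weeks, and for actin 0.14 to 0.58 and 0.22 to 0.77. For EF1A it was far wider, at 9.28 to 9.58 in controls and 9.45 to 9.64 at 2 weeks. The library labelled RA late 3, which is in neither group compared, had chamber markers at the RV level and was left out of the fit of the other 17 arrays.

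At an adjusted p under 0.05 (limma, Benjamini-Hochberg over all probe sets tested), 179 genes were higher at 2 weeks (1.63% of those tested) and 151 were lower (1.37%). The rises were larger than the falls: 73 of the higher genes (0.664% of those tested) and 18 of the lower (0.164%) differed by more than 2-fold. The median difference over all 10988 genes was -0.02, and 4970 were above 0. For 178 of the 179 higher genes and all 151 lower genes the 3 arrays of each group did not overlap. Over all genes, 952 (8.66%) lay wholly higher and 1038 (9.45%) wholly lower, so lack of overlap alone was common.

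The count depended on which arrays set the spread. With the library labelled RA late 3 also in the fit, 32 genes were higher (0.291%) and 50 lower (0.455%). With only the 6 compared arrays in the fit, 165 (1.5%) and 114 (1.04%) passed. With the 2 late RA arrays added to these 6, it was 45 and 36. The count of 330 became 134, 91 and 171 without RA control 1, 2 and 3. Leaving out 2-week array 1, 2 or 3 gave 311, 295 and 127. The direction followed the array: without 2-week array 1 there were 90 higher and 221 lower genes, and without 2-week array 2 there were 222 and 73. Among the 179 higher genes, 2-week array 2 was the nearest of the 3 to the controls in 142, with a median difference of 0.64 against 1.14 and 0.93 in the other arrays. Among the 151 lower genes, array 1 was nearest in 95.

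**Figure D1:**
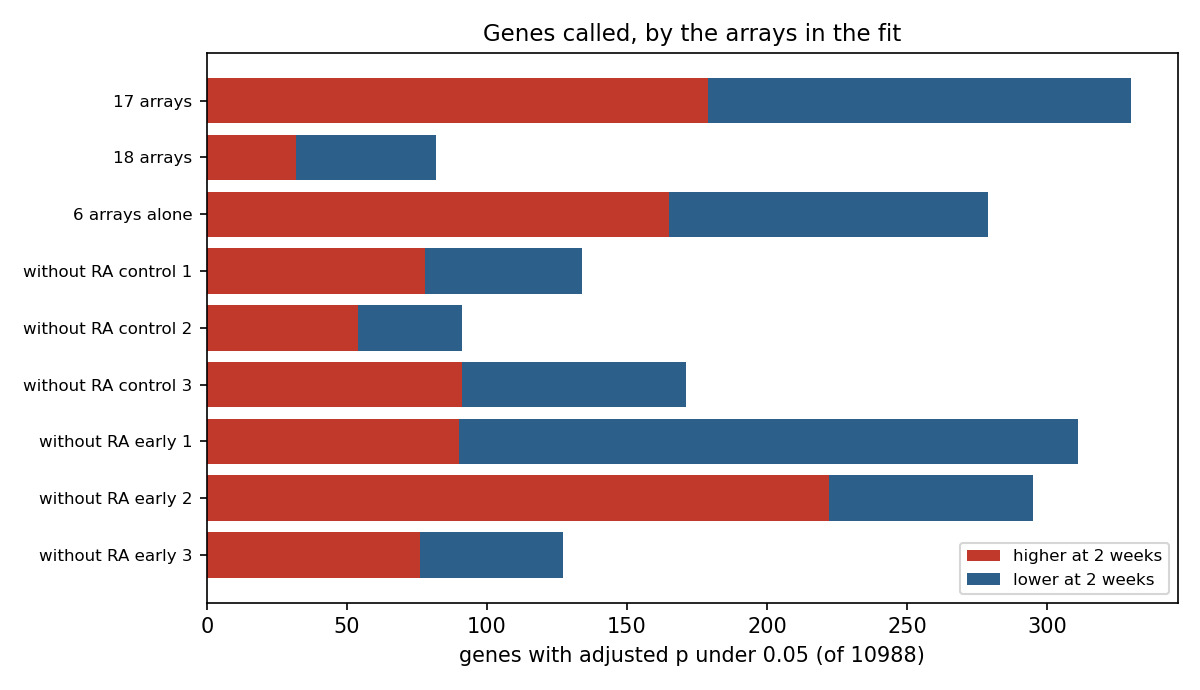
Genes with adjusted p under 0.05 in the RA at 2 weeks against control (x axis, of 10988 genes), by the arrays in the fit (y axis), with red for higher and blue for lower genes. The 17-array fit gives 330 genes, the 18-array fit 82, and the fits with 1 compared array left out between 91 and 311.

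A smaller set did not turn on any of the 6 arrays. Of the 330 genes, 72 (44 higher, 28 lower) passed in each of the 6 fits with 1 compared array left out, and all 72 passed with the 6 arrays alone. With all 18 arrays in the fit as well, 44 of them passed, 21 higher and 23 lower. The 21 include POSTN, THBS4, FN1, FBN1, CCL2, BPI, TOP2A, ACTA1, MYLK and RGS5, and the 23 include MYLK3, CIRBP, LSMEM1, RAB9B, EDNRA, NDUFS7, IDH3B and MRPL48. Below, 6 numbers given "in array order" are counts without RA control 1, 2 and 3 and then without 2-week array 1, 2 and 3. The count of each list is to be read beside the shares over all genes tested, 1.63% higher and 1.37% lower.

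Matricellular genes held the largest rises. POSTN encodes periostin, a protein of activated fibroblasts that helps assemble collagen. Its signal was 3.97, 4.15 and 4.48 in controls and 9.52, 7.78 and 9.14 at 2 weeks. No control reached the filter limit of 5.31, while every paced array was far above it. The difference of 4.61 (SE 0.73, adjusted p = 0.00416), or 24.5-fold, therefore starts from background, and above the limit it is 3.51. THBS4, thrombospondin 4, a matrix glycoprotein of stressed muscle and tendon, read 5.76, 5.55 and 5.46 in controls and 10.79, 9.0 and 10.61 at 2 weeks. It rose 23.3-fold (4.54, SE 0.51, adjusted p = 0.000847), the groups lying more than 3 log2 units apart. Its controls lay just above the filter limit of 5.31, so this fold also starts from near background. Both genes passed in each fit with 1 array left out and with 18 arrays.

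Of 25 tested matricellular and proteoglycan genes, 8 rose (32%, against 1.63% of all genes) and 0 fell. Their median difference was 0.71 against -0.02 over all genes. The others that rose were THBS1 (1.47, SE 0.37), which can activate latent TGF-beta, the collagen-binding proteoglycans BGN (0.94), LUM (0.93) and ASPN (0.88), DPT (0.87) and SPARC (0.71). THBS1 was 8.22, 7.88 and 8.44 in controls and 10.03, 8.89 and 10.04 at 2 weeks, without overlap. Large differences with wide spread did not pass. SPP1, osteopontin, was 5.65, 8.05 and 7.91 against 11.25, 9.96 and 10.14 (difference 3.25, SE 1.19, adjusted p = 0.167). CCN2, connective tissue growth factor, was 9.32, 8.77 and 11.54 against 12.16, 11.22 and 11.58 (1.78, SE 0.87, adjusted p = 0.339), control 3 lying at the paced level. CILP read 6.96, 7.30 and 7.0 against 8.83, 7.63 and 9.83 (1.68, adjusted p = 0.15). In array order, 4, 2, 4, 4, 9 and 3 genes of the list passed, and with 18 arrays 3 did.

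**Figure D2:**
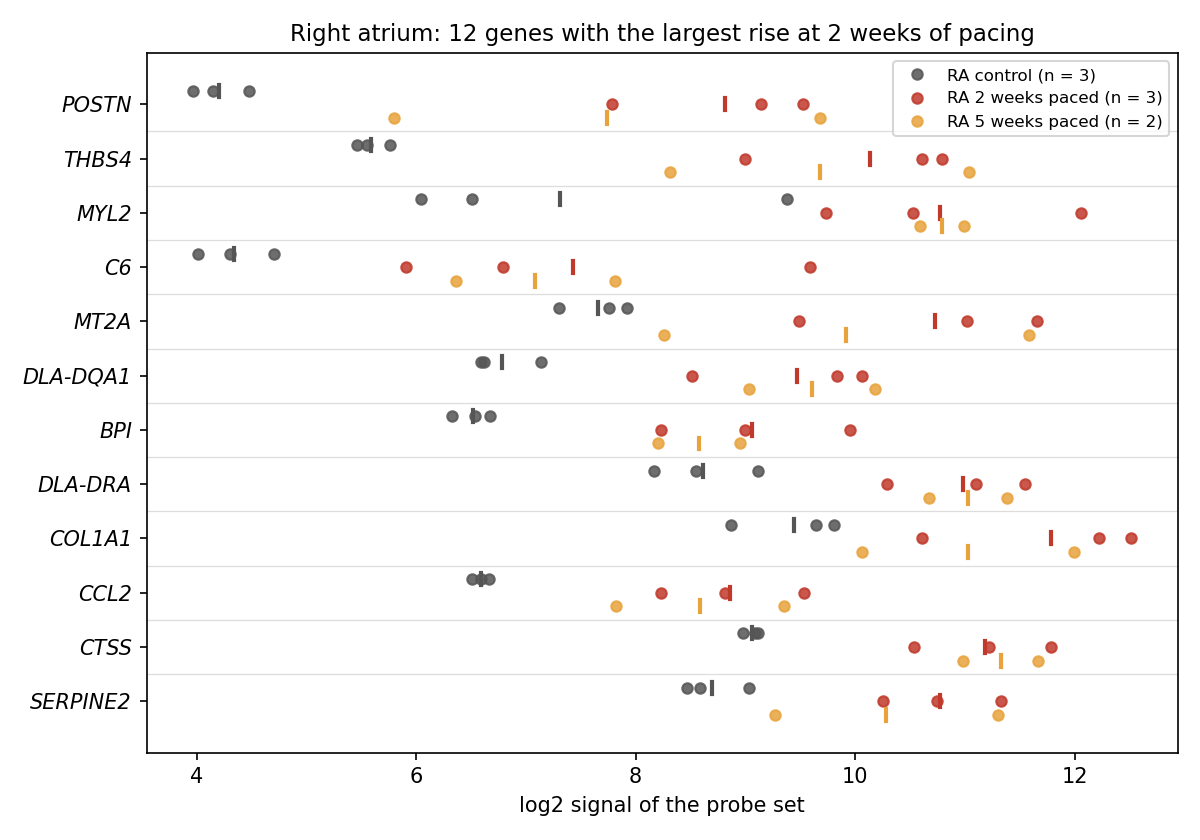
The 12 genes with the largest rise in the RA at 2 weeks among those that passed with no overlap of arrays. Points are the log2 signals (x axis) of single arrays of RA control (grey), 2 weeks paced (red) and 5 weeks paced (orange, without the library labelled RA late 3), and bars are group means. POSTN goes from 3.97 to 4.48 in controls to 7.78 to 9.52 at 2 weeks, and 2-week array 2 is the lowest of its group in most genes but the highest for MYL2 and C6.

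Of 14 collagen genes, 7 rose (50%, against 1.63% of all genes), 0 fell and 7 did not pass, and the median difference was 1.17. They were the interstitial chains COL1A1 (2.34, SE 0.54), COL1A2 (1.74, SE 0.35), COL3A1 (1.58, SE 0.34), COL5A1 (1.31) and COL5A2 (1.15), and the basement membrane chains COL4A1 (1.45) and COL4A2 (1.19). COL1A1, the main chain of type I collagen, read 9.81, 8.87 and 9.64 in controls and 12.51, 10.61 and 12.22 at 2 weeks (adjusted p = 0.0267). COL3A1 read 11.16, 10.69 and 11.08 and then 12.98, 11.89 and 12.81 (adjusted p = 0.0203). In both genes array 2 was the lowest of the paced arrays and still above every control. The microfibrillar chains COL6A1 (-0.05) and COL6A3 (0.17) lay near 0. The size of the median depended on the choice of probe set. With the mean of all tested probe sets of a gene, the collagen median was 0.62 and 8 collagens passed. That of the macrophage and monocyte markers was then higher, at 0.67. In array order, 4, 0, 2, 4, 8 and 1 collagens passed, and with 18 arrays 0 did. COL1A1 passed without 2-week array 2 and in none of the other 5 fits with 1 array left out.

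Among 17 genes of elastic fibres and fibronectin matrix, 6 rose and 0 fell, with a median of 0.06, so the list was split. FN1, fibronectin, the provisional matrix on which collagen is laid, rose from 10.39, 9.94 and 10.27 to 12.50, 11.49 and 12.55 (1.98, SE 0.33, adjusted p = 0.00544). FBN1, fibrillin 1 of the microfibril, rose from 10.01, 9.65 and 9.68 to 11.75, 11.02 and 11.39 (1.61, SE 0.25, adjusted p = 0.00416). The microfibril and fibulin genes EFEMP1 (1.38), MFAP5 (1.26), FBLN1 (1.12) and FBLN5 (0.84) rose as well. ELN, elastin itself, differed by 0.00, and the latent TGF-beta binding genes LTBP1 (-0.16), LTBP2 (-0.29), LTBP3 (-0.08) and LTBP4 (0.04) did not pass. FN1 and FBN1 passed in all 6 fits with an array left out, in which 3, 2, 2, 2, 7 and 2 genes of the list passed in array order.

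Enzymes that mature and degrade matrix followed in part. Of 20 collagen processing genes, TGM2 (1.11), a protein cross-linking enzyme, and PCOLCE (0.63), an enhancer of procollagen cleavage, rose and 18 did not pass. LOX, lysyl oxidase, read 5.40, 5.50 and 5.63 in controls and 5.43, 5.57 and 5.85 at 2 weeks (0.11, SE 0.11, adjusted p = 0.736). Of 21 protease and inhibitor genes, 4 rose and 0 fell, 3 of them inhibitors. SERPINE2, protease nexin 1, rose from 8.59, 9.03 and 8.47 to 11.33, 10.25 and 10.75 (2.08, SE 0.37, adjusted p = 0.00714). TIMP1 (1.37, SE 0.30) and TIMP2 (0.48, SE 0.11) inhibit matrix metalloproteinases, and CTSK (1.40, SE 0.27) is a collagen-cleaving cathepsin. The metalloproteinases MMP2 (0.04), MMP9 (-0.08) and MMP14 (-0.08) lay near 0. In array order, 0, 0, 1, 0, 5 and 1 processing genes and 2, 2, 2, 2, 4 and 2 protease and inhibitor genes passed.

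In the TGF-beta and BMP list, a signalling family known to drive fibrosis, 3 of 27 genes rose and 0 fell, with a median of 0.05. TGFBR2, the ligand-binding receptor, was nearly constant in controls (9.39, 9.40 and 9.40) and higher at 2 weeks (10.56, 9.87 and 10.16), a rise of 0.80 (SE 0.15, adjusted p = 0.00893). FSTL1 (0.80) and the signal transducer SMAD2 (0.61) rose too. The ligand TGFB1 was 7.01, 7.0 and 6.93 against 7.14, 7.04 and 7.11 (0.12, SE 0.09, adjusted p = 0.6). The count was 1, 2, 2, 1, 4 and 1 in array order.

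Fibroblast markers moved with these groups. Of 17, 8 rose and 0 fell, with a median of 0.63, and all 8 (COL1A1, COL1A2, COL3A1, LUM, MFAP5, FBLN1, DPT and PCOLCE) are also in the matrix lists above. The mean signal over the 17 was 8.87 to 9.03 in controls and 9.35 to 9.94 at 2 weeks. The receptor PDGFRA (0.35), DCN (0.33), GSN (0.13) and SCARA5 (0.02) did not pass. In array order, 3, 0, 1, 2, 9 and 1 of these markers passed. Their part in the matrix results was not tested.

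Of 19 antigen presentation genes tested, 9 rose (47.4%, against 1.63% of all genes) and 0 fell, with a median of 0.41. The class II genes present peptides taken up from outside the cell. DLA-DQA1, a class II alpha chain, rose 6.42-fold, from 7.14, 6.62 and 6.59 to 10.06, 8.51 and 9.83 (2.68, SE 0.39, adjusted p = 0.0033). DLA-DRA rose from 9.11, 8.55 and 8.17 to 11.55, 10.29 and 11.10 (2.37, SE 0.37, adjusted p = 0.00416). The paced arrays kept 1 order in both genes, array 1 highest and array 2 lowest, and all were above the controls.

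DLA-DQB1 (1.96), the peptide-loading chain DLA-DMA (1.37, SE 0.22) and its partner DLA-DMB (0.63), the invariant chain CD74 (1.14), and IFI30 (0.78), a lysosomal reductase, rose as well. CD86, a T cell co-stimulator, rose by 1.19 (SE 0.21, adjusted p = 0.00741). CTSS, cathepsin S, which trims the invariant chain, rose 4.35-fold, from 9.09, 8.98 and 9.11 to 11.78, 10.54 and 11.22 (2.12, SE 0.27, adjusted p = 0.00125). Class I genes and their transporters did not follow: B2M (0.38), DLA88 (-0.08), TAP1 (0.12), TAP2 (0.04) and TAPBP (-0.06) did not pass, nor did CIITA (-0.04), the class II activator. Class II genes resemble one another and probes may share signal. A further DLA-DQA1 probe set differed by 0.20 only. In array order, 7, 6, 7, 6, 11 and 6 genes of the list passed, and with 18 arrays DLA-DMA alone (adjusted p = 0.0385).

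Of 34 chemokine and cytokine genes 4 rose, in each fit with 1 array left out at least 4 did, and 0 fell. CCL2, the main monocyte attractant, was tight in controls (6.59, 6.51 and 6.66) and 8.81, 8.23 and 9.53 at 2 weeks, a 4.82-fold rise (2.27, SE 0.32, adjusted p = 0.00297). CCL23, another chemokine for monocytes, rose from 8.18, 8.17 and 7.94 to 10.54, 9.15 and 10.31 (1.90, SE 0.35, adjusted p = 0.0088). CXCL16 (0.87) and the receptor chain IL13RA1 (0.87) rose by less. TNF (-0.15), IL10 (0.16), IL18 (0.57) and CXCL12 (-0.08) did not pass, and the list's median was 0.05.

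Of 20 complement genes, 7 rose (35%, against 1.63% of all genes) and 0 fell, with a median of 0.35. The recognition chains C1QC (1.40) and C1QA (0.51), the proteases C1S (1.59, SE 0.31) and C1R (1.14), and the central component C3 (1.85, SE 0.37) rose. CFI, the protease that inactivates C3b, rose from 6.90, 6.87 and 7.06 to 8.99, 8.43 and 8.41 (1.67, SE 0.31, adjusted p = 0.00904). C6, of the membrane attack complex, read 4.30, 4.70 and 4.01 in controls, below the filter limit, and 6.79, 9.59 and 5.91 at 2 weeks (3.09, SE 0.71, adjusted p = 0.0267). Here array 2 stood far above its group, and without it the difference was 2.01. C6 passed only without 2-week array 1 or 3. The count was 1, 2, 2, 5, 8 and 5 in array order, and 0 with 18 arrays.

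Of 37 lysosomal genes 5 rose (13.5%, against 1.63% of all genes) and 0 fell. They were CTSC (1.50, SE 0.25), CTSH (0.85), CTSB (0.60), LAMP2 (0.88) and CD63 (0.49). The aspartic cathepsin CTSD (0.21) and LAMP1 (0.15) did not pass, and the median was 0.09. In array order 1, 1, 2, 2, 6 and 1 of these genes passed. The interferon list, in contrast, had 1 of 23 genes higher (SAMD9L, 0.81), a share of 4.35% against 1.63% of all genes. MX1 (0.04), ISG15 (0.00) and OAS1 (0.08) lay near 0.

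Macrophage and monocyte markers moved with the immune groups. Of 20, 7 rose (35%, against 1.63% of all genes) and 0 fell, with a median of 0.52. The 7 were CTSS, LYZ (1.50, SE 0.25), C1QC, TYROBP (1.30), CD74, MRC1 (0.71) and C1QA. CTSS, CD74, C1QC and C1QA are also in the antigen presentation or complement list. The mean signal over the 20 was 7.13 to 7.23 in controls and 8.26, 7.61 and 7.89 at 2 weeks. CD163 (1.30, adjusted p = 0.0586) and AIF1 (1.32, adjusted p = 0.0541) fell short, while CSF1R (-0.02), the growth factor receptor that defines the lineage, and CD68 (0.51) did not pass either. In array order 2, 2, 2, 3, 11 and 3 markers passed.

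Other white cell types showed less. No T and NK cell marker of 12 (CD3E 0.02, CD8A -0.11), B and plasma cell marker of 5 or mast cell marker of 7 passed. Of 6 neutrophil markers only BPI did, an antibacterial granule protein, which rose from 6.33, 6.54 and 6.67 to 9.95, 8.23 and 9.0 (2.55, SE 0.32, adjusted p = 0.00122). The other granule and receptor genes S100A8 (0.43), CSF3R (0.00), ELANE (-0.02) and CAMP (-0.09) lay lower. Only 12 of 24 T and NK cell, 5 of 16 B and plasma cell and 6 of 17 neutrophil genes listed were tested. Some tested markers were near background, such as BLK at 5.19 to 5.30. A change in these cells could therefore be missed. The part of cell composition in the immune results was not tested.

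Of 38 genes of the motile cytoskeleton, 10 rose, 0 fell and 34 lay above 0, with a median of 0.34. The calcium-binding proteins S100A4 (1.59), S100A6 (0.87) and S100A10 (0.84), the actin bundler LCP1 (1.59), the annexins ANXA1 (1.30, SE 0.21) and ANXA2 (0.52), TMSB10 (0.95), VIM (0.69), and the branched-actin subunits ARPC1B (0.69) and ARPC4 (0.61) made up the 10. ANXA1, which restrains inflammation, read 8.86, 8.88 and 8.63 in controls and 10.12, 9.89 and 10.25 at 2 weeks, with little spread in either group. When probe sets that may cross-hybridise were left out, another probe set stood for ARPC1B and its difference was -0.14 (adjusted p = 0.604). The count was 4, 3, 5, 4, 13 and 3 in array order, and 1 with 18 arrays.

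Of 27 cell cycle genes 4 rose and 0 fell. TOP2A, a topoisomerase of dividing cells, read 5.00, 4.76 and 5.10 in controls, all below the filter limit, and 6.39, 5.83 and 7.01 at 2 weeks (1.46, SE 0.22, adjusted p = 0.00351). DLGAP5 (0.59, SE 0.11), a spindle protein, PCNA (0.75) and CDKN3 (0.44) rose, while CDK1 (1.38, adjusted p = 0.137), AURKB (0.14), CCNB2 (0.11) and MCM5 (-0.04) did not pass. The median was 0.11. In array order, 2, 2, 3, 2, 4 and 3 passed.

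In the vessel lists, 2 of 17 endothelial markers rose, EMCN (0.80) and PECAM1 (0.76), and CDH5 (-0.07), KDR (-0.11) and FLT1 (0.00) lay near 0. Of 15 smooth muscle and pericyte markers, 2 rose (RGS5 and MYLK) and 1 fell (SMTN), with a median of 0.21. RGS5, a pericyte gene, rose from 6.41, 6.48 and 6.30 to 7.61, 7.37 and 7.35 (1.05, SE 0.18, adjusted p = 0.00737). The other pericyte genes PDGFRB (0.21), ABCC9 (0.42) and KCNJ8 (-0.51) did not pass. MYLK, the smooth muscle myosin light chain kinase, rose from 7.29, 7.02 and 7.20 to 8.21, 9.39 and 8.71 (1.60, SE 0.26, adjusted p = 0.00494). Other smooth muscle genes did not rise with it: MYH11 (0.08), CNN1 (-0.08) and ACTA2 (0.35) did not pass, and the actin-binding SMTN fell by 0.82 (SE 0.18). EMCN and PECAM1 were both lost in the fit without RA control 1, 2-week array 1 or RA control 2, in which 0 endothelial markers passed.

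Of 28 stress and fetal programme genes of the heart muscle, 3 rose (10.7%: ACTA1, MT2A and MYLK), 1 fell (3.57%: MYLK3) and 24 did not pass. Their median difference was -0.02 and 12 of the 28 lay above 0. ACTA1, the skeletal alpha actin that is re-expressed in overloaded hearts, rose 2.15-fold. It read 12.91, 12.64 and 13.52 in controls and 14.14, 14.10 and 14.14 at 2 weeks (1.10, SE 0.15, adjusted p = 0.00249), so that the controls spread and the paced arrays agreed to within 0.04. MT2A, a metallothionein, rose by 3.06 (SE 0.79, adjusted p = 0.0451), from 7.92, 7.30 and 7.76 to 11.66, 9.49 and 11.02, and passed with 1 array left out only without 2-week array 2. NPPB, the B-type natriuretic peptide and a marker of wall stress, did not pass (2.31, SE 0.92, adjusted p = 0.212). Its controls ranged over 8.59, 11.21 and 12.38, while the paced arrays lay at 13.17, 13.08 and 12.87. The groups did not overlap, and control 3 was within 0.49 of the lowest paced array. ANKRD1, a stretch-responsive titin-binding protein, had the same form (12.77, 12.96 and 13.46 against 13.80, 13.81 and 13.70; 0.71, SE 0.25, adjusted p = 0.156).

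Light chains of the ventricle were higher in the paced atrium. MYL2, normally the regulatory light chain of ventricular myosin, read 6.51, 6.04 and 9.38 in controls and 9.73, 12.06 and 10.53 at 2 weeks (3.46, SE 0.68, adjusted p = 0.0126). MYL3, the essential light chain, read 7.59, 7.91 and 7.97 and then 9.24, 10.86 and 9.04 (1.89, SE 0.40, adjusted p = 0.0171). In both, 2-week array 2 was highest, and all paced arrays lay below the RV control means of 14.15 and 14.06. Neither passed without RA control 1 or without RA control 2. MYL1 (0.94, SE 0.17), a fast muscle light chain, rose too and passed in all 6 fits.

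Of 11 ventricular markers, 3 rose (MYL2, MYL3 and MYOZ2, 0.40) and 0 fell. Their mean signal was 7.64 to 8.02 in controls and 8.05, 9.06 and 8.34 at 2 weeks, highest in array 2. HSD11B1 read 6.28, 10.05 and 6.55 at 2 weeks, 5.88 to 6.04 in RA controls and 9.22 on average in RV controls. All paced arrays lay above the RA controls, array 2 by far the most. The ventricular transcription factor IRX5 stood at 4.72, 5.56 and 5.59 at 2 weeks, 5.02 to 5.24 in RA controls and 7.94 in RV controls. IRX4 differed by -0.06. The part of ventricular tissue in these values was not tested.

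Of 10 atrial markers, CRYM fell and 8 lay below 0, with a median of -0.38. CRYM, a thyroid hormone-binding protein that is high in atrium, read 10.73, 10.98 and 9.85 in controls and 9.18, 8.82 and 8.62 at 2 weeks (-1.65, SE 0.35, adjusted p = 0.0171). PAM, the peptide-amidating enzyme abundant in atrial granules, read 13.33, 13.33 and 13.40 and then 12.64, 12.68 and 12.75 (-0.66, SE 0.18, adjusted p = 0.0575). Its groups stood well apart, but the SE, which is shared by all groups in the fit, kept it above the threshold. CRYM did not pass without RA control 1, RA control 2 or 2-week array 3.

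Among 50 sarcomere and Z-disc genes, 3 rose (6%: the light chains and MYOZ2) and 4 fell (8%), against 1.63% and 1.37% of all genes. MYOM2, a protein of the M-band, fell from 10.21, 10.08 and 10.22 to 8.95, 8.99 and 9.19 (-1.13, SE 0.29, adjusted p = 0.0468). MYOZ1 (-0.98) and SMTNL2 (-1.11, SE 0.20, adjusted p = 0.00814) fell, as did troponin T, TNNT2 (-0.42). TTN, titin, read 13.35, 12.97 and 11.94 at 2 weeks against 13.33 to 13.44 in controls (-0.64, SE 0.26, adjusted p = 0.219). The atrial light chains MYL4 (-0.07) and MYL7 (-0.17) did not pass. Without 1 array, in array order, 1, 0, 2, 3, 2 and 3 genes were higher and 2, 1, 1, 3, 3 and 1 lower, and MYOM2 passed in none of the 6.

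Falls were smaller than rises. The median SD of the 3 paced arrays was 0.16 over the 151 lower genes and 0.31 over the 179 higher genes. MYLK3, the cardiac kinase of the regulatory light chain, fell 2.39-fold, from 12.23, 12.37 and 12.07 to 11.08, 11.12 and 10.70 (-1.26, SE 0.21, adjusted p = 0.006), while its smooth muscle counterpart MYLK rose. LSMEM1, a membrane protein of muscle, fell from 8.11, 7.97 and 7.98 to 6.71, 6.94 and 6.47 (-1.31, SE 0.18, adjusted p = 0.00249). RAB9B, a small GTPase of endosomal traffic, fell from 6.80, 6.98 and 7.08 to 5.77, 5.34 and 5.94 (-1.27, SE 0.15, adjusted p = 0.00103). These genes passed in every fit with 1 array left out and with 18 arrays.

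CCBE1, a matrix protein needed for lymphatic growth, fell by 1.45 (SE 0.22, adjusted p = 0.00336), with controls at 8.20, 8.33 and 7.61 and paced arrays at 6.55, 6.45 and 6.79. FGFBP1 (-1.57, SE 0.38), which releases fibroblast growth factors from matrix, ACSBG1 (-1.37, SE 0.26), an acyl-CoA synthetase, DYNC2I1 (-1.18, SE 0.31) and MAL (-1.15, SE 0.30) fell too. ACSBG1 did not pass without 2-week array 3. DYNC2I1 passed only without RA control 2 or 2-week array 1, and FGFBP1 and MAL only without 2-week array 2. The largest fall of all (-2.13, SE 0.24, adjusted p = 0.000847) was in a gene that has a locus number only.

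**Figure D3:**
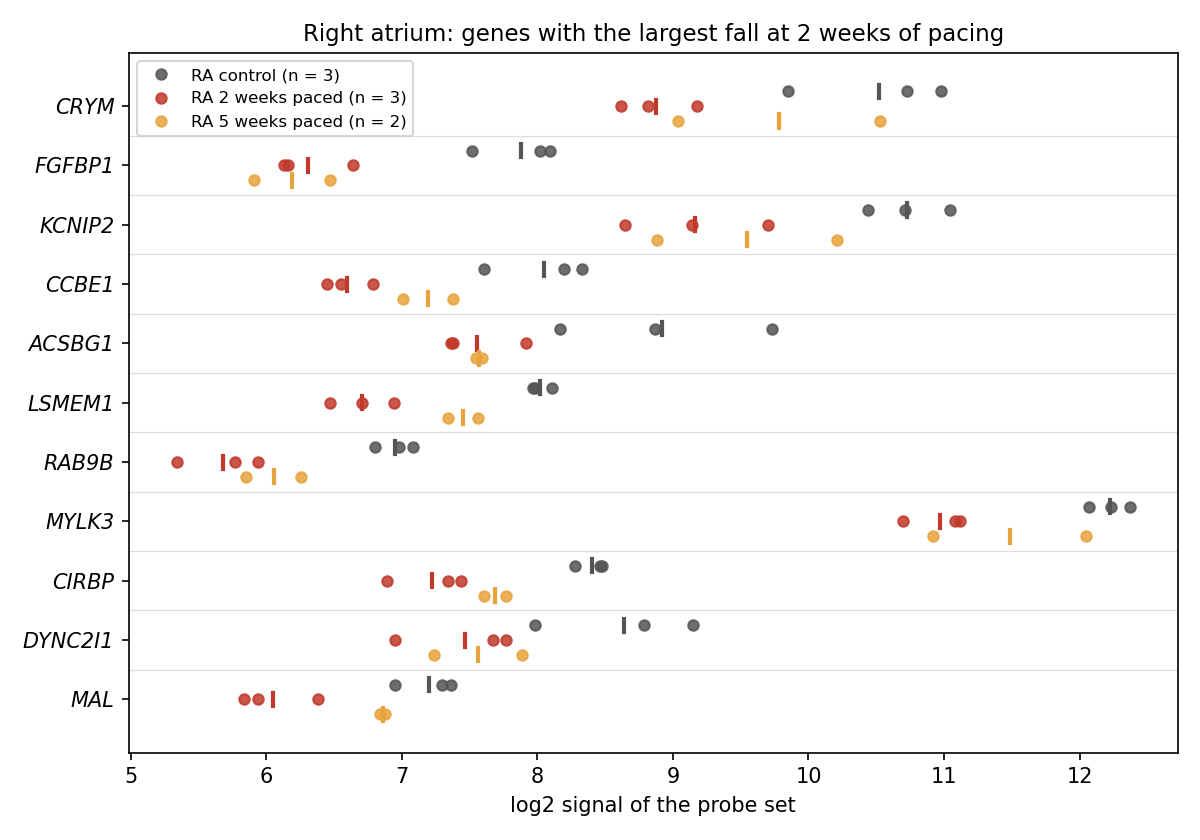
The 11 named genes with the largest fall in the RA at 2 weeks among those that passed with no overlap of arrays. Points are log2 signals (x axis) of single arrays of RA control (grey), 2 weeks paced (red) and 5 weeks paced (orange, without the library labelled RA late 3), and bars are group means. MYLK3 goes from 12.07 to 12.37 in controls to 10.70 to 11.12 at 2 weeks, and for CRYM and MYLK3 a 5-week array lies within or near the control range.

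RNA-binding proteins of the cold-inducible and SR splicing families leaned down in 2-week arrays 2 and 3. The mean signal over the list was 8.57, 8.55 and 8.53 in controls and 8.54, 8.26 and 8.23 at 2 weeks. By this mean, array 1 lay at the control level. Of 35, 3 fell and 0 rose, and 31 lay below 0, with a median of -0.15. CIRBP, which is induced by cold and binds many messenger RNAs, fell 2.27-fold, from 8.46, 8.28 and 8.48 to 7.34, 7.44 and 6.89 (-1.18, SE 0.16, adjusted p = 0.00249). The splicing factor SRSF5 (-1.01, SE 0.21) and RBFOX1 (-0.60, SE 0.12), a muscle and nerve splicing regulator, fell. RBM20 (-0.01), the titin splicing factor, and MBNL1 (-0.13) did not pass. The count was 2, 1, 1, 4, 3 and 1 in array order. CIRBP passed in all 6, and all 3 genes passed with 18 arrays.

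Respiratory chain genes were lower by small amounts. Of 38 complex I genes, 8 fell (21.1%, against 1.37% of all genes), 1 rose and 34 lay below 0, with a median of -0.28. Complex I is the NADH dehydrogenase that feeds electrons into the chain. NDUFS7, an iron-sulphur subunit of its core, fell from 11.83, 11.70 and 11.63 to 10.93, 11.02 and 11.05 (-0.72, SE 0.12, adjusted p = 0.00632), 1.65-fold. The core subunits NDUFS8 (-0.61) and NDUFV2 (-0.46) and the accessory subunits NDUFA7 (-0.55), NDUFS6 (-0.46), NDUFA3 (-0.41), NDUFA13 (-0.41) and NDUFAB1 (-0.31) fell. The gene that rose, NDUFAF4 (0.67), encodes an assembly factor. In array order 3, 2, 4, 9, 5 and 4 of the list were lower and 0 higher in each, and with 18 arrays 3 were lower.

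In complexes II to V, 4 of 31 genes fell, 0 rose and 29 lay at or below 0, with a median of -0.23. They were SDHB (-0.33) of complex II, UQCRC1 (-0.53) of complex III, and COX6A2 (-0.43) and COX7A1 (-0.40), the muscle forms of complex IV subunits. Subunits of ATP synthase such as ATP5F1A (-0.17) and ATP5F1B (-0.24) did not pass. The count was 0, 0, 1, 3, 0 and 0 in array order. Of 72 mitochondrial ribosomal genes 4 fell and 0 rose (median -0.13), with MRPL48 lowest (-0.66, SE 0.12, adjusted p = 0.00848). In array order 1, 1, 2, 3, 1 and 1 of them were lower. The mean signal over the 72 in 2-week array 1 (8.64) lay within the control range of 8.63 to 8.74. None of 50 cytosolic ribosomal genes passed, and their median was 0.00. Their differences lay between -0.24 (RPS28) and 0.18 (RPL17).

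Of 32 genes of pyruvate and the citric acid cycle, 5 fell and 0 rose. Both IDH3B (-0.68, SE 0.10, adjusted p = 0.00369) and IDH3G (-0.66, SE 0.12), subunits of the NAD-dependent isocitrate dehydrogenase, fell, while their partner IDH3A differed by -0.03. IDH3B read 12.06, 11.98 and 11.98 in controls and 11.37, 11.33 and 11.29 at 2 weeks. FH (-0.65), GOT1 (-0.54) and ME3 (-0.82) fell. The count was 4, 2, 4, 7, 2 and 2 in array order. The list's median was -0.11 in the RA and -0.19 in the RV at 2 weeks. RV medians were also below 0 for complex I (-0.25), complexes II to V (-0.18) and the mitochondrial ribosome (-0.17).

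Among 44 fatty acid genes, 5 fell (11.4%) and 1 rose (2.27%), against 1.37% and 1.63% of all genes. ACADVL, the mitochondrial very-long-chain dehydrogenase, fell from 12.26, 12.30 and 11.89 to 11.40, 11.49 and 11.30 (-0.75, SE 0.17, adjusted p = 0.0247), with ACADS (-0.53), ACAT1 (-0.57), UCP1 (-0.59) and ACSBG1. UCP2 (0.72), an uncoupling protein of many cell types, rose. CD36 (0.56), the fatty acid transporter, CPT1B (-0.38) and PPARGC1A (-0.54) did not pass. Of 30 glycolytic genes 1 rose (3.33%, against 1.63% of all genes), the glucose transporter SLC2A3 (0.68). PFKM (-0.41) and PYGM (-0.62) did not pass. In array order, 1, 1, 3, 6, 4 and 2 fatty acid genes fell.

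**Figure D4:**
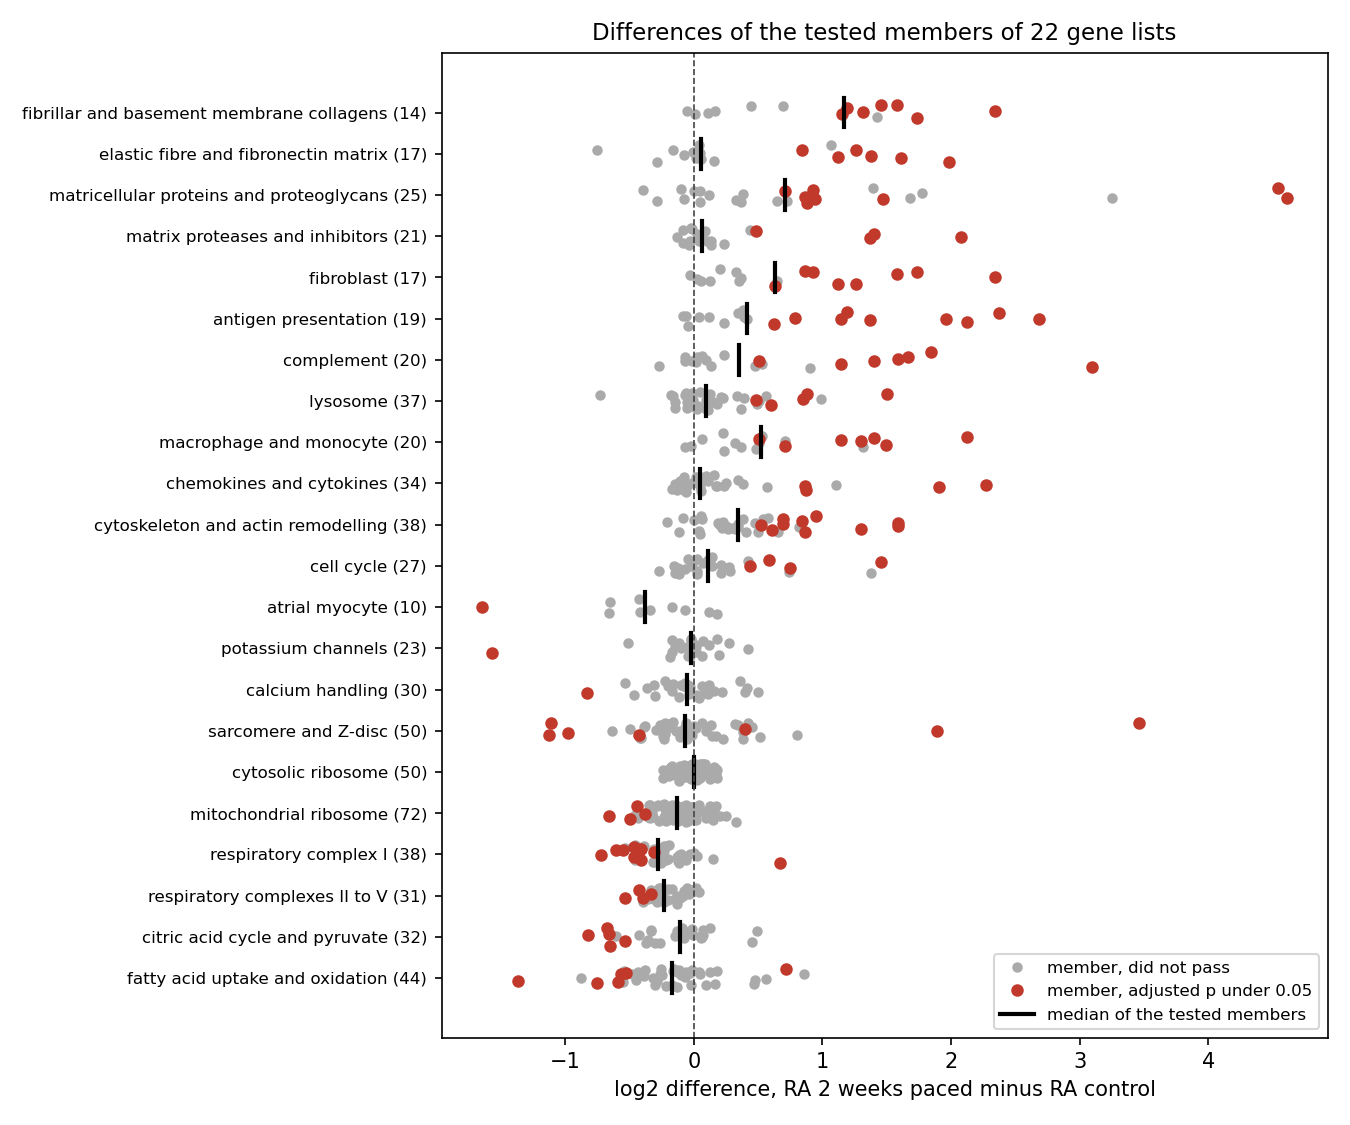
Log2 difference of the RA at 2 weeks minus control (x axis) for each tested member of 22 gene lists (y axis, number tested in brackets), with red points for members with adjusted p under 0.05, grey for the others and a bar at the median. With 1 probe set per gene, collagens have the highest median (1.17) of these lists, but not with the mean of all tested probe sets (0.62). All called members of the antigen presentation list lie above 0, and complex I genes lie mostly below 0 with 1 called member above.

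Most ion channel genes did not pass. Of 23 potassium channel genes, KCNIP2 fell and 22 did not pass, with a median of -0.02. These were 23 of the 48 listed, the others having no tested probe set under their own symbol. KCNIP2, the subunit that sets the density of the transient outward current, read 11.04, 10.71 and 10.44 in controls and 8.65, 9.14 and 9.70 at 2 weeks (-1.57, SE 0.41, adjusted p = 0.0463), 2.96-fold lower. The groups did not overlap, but it passed in none of the 6 fits with an array left out. Its pore-forming partner KCND3 differed by -0.17 (SE 0.15, adjusted p = 0.683). The atrial channel KCNA5 read 5.87, 5.98 and 5.63 against 5.82, 6.20 and 5.99 (0.18, SE 0.11, adjusted p = 0.471). KCNH2 (0.02, SE 0.11) and KCNQ1 (-0.10, SE 0.10), of the rapid and slow delayed rectifier currents, did not pass. MYH6, KCNJ3 and KCNJ5 had no tested probe set under their own symbol.

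None of 12 sodium, calcium and pacemaker channel genes passed, and CACNA1C, the pore of the L-type calcium channel, differed by -0.05 (SE 0.12). These 12 were all that could be tested of 37 listed. Of 30 calcium handling genes, RYR2, the release channel of the sarcoplasmic reticulum, fell from 12.38, 12.31 and 12.19 to 11.71, 11.45 and 11.23 (-0.83, SE 0.19, adjusted p = 0.0272). It kept this call only without 2-week array 1 and lost it in the other 5 fits. The calcium pump ATP2A2 (-0.30, SE 0.14, adjusted p = 0.326), its inhibitor PLN (-0.07, SE 0.13) and the exchanger SLC8A1 (-0.37, SE 0.12, adjusted p = 0.104) did not pass. The ATP2A2 arrays did not overlap (13.46 to 13.53 against 13.08 to 13.24).

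None of 23 gap junction and intercalated disc genes passed. GJA1, connexin 43, read 7.97, 7.94 and 8.05 in controls and 7.99, 8.0 and 8.09 at 2 weeks (0.04, SE 0.10). GJA5, connexin 40 of the atrium, read 8.97, 8.94 and 9.21 and then 8.46, 8.63 and 8.74 (-0.43, SE 0.17, adjusted p = 0.189), without overlap. Of 19 adrenergic, muscarinic and renin-angiotensin genes, EDNRA, the endothelin A receptor, fell from 8.32, 8.45 and 8.27 to 7.67, 7.55 and 7.32 (-0.83, SE 0.12, adjusted p = 0.0033), in all 6 fits and with 18 arrays. ADRB1, the main cardiac beta receptor, differed by -0.17.

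Further lists had few calls. None of 24 cardiac transcription factors, 22 integrin and focal adhesion genes, 7 laminin and basement membrane genes, 32 endoplasmic reticulum chaperones, 30 ubiquitin ligase and autophagy genes or 11 clock genes passed, at medians between -0.10 and 0.12. Of 23 immediate early genes, MCL1 (0.98), IER3 (0.92) and IER2 (0.72) rose, and FOS (0.10), JUN (0.11) and NR4A1 (-1.24) did not pass. Of 27 heat shock genes, the co-chaperones FKBP4 (-0.56) and DNAJA4 (-0.64) fell (7.41%, against 1.37% of all genes). Of 19 adipocyte markers UCP1 fell and 18 did not pass, with ADIPOQ, adiponectin, at 9.81, 10.58 and 10.51 in controls and 7.29, 9.65 and 7.67 at 2 weeks (-2.10, SE 0.96, adjusted p = 0.29).

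The atrial differences were then set beside those of the RV, from 3 control and 3 2-week arrays. RA and RV arrays of equal number deviated together from their group means, with correlations of 0.36, 0.24 and 0.42 in controls and 0.17, 0.26 and 0.15 at 2 weeks. The chambers may therefore not be independent samples, and what their lists share is given as a description only. In the RV, 42 genes were higher (0.382%) and 16 lower (0.146%) at 2 weeks. The 8 genes higher in both chambers (4.47% of the atrial and 19% of the ventricular calls) were CTSK, CYP1B1, FAR2, IER3, KERA, MCL1, PTGER4 and TGM2. The 8 lower in both (5.3% and 50%) were CDK5RAP1, IDH3B, MRPL48, NDUFAB1, PAAF1, SDHB, SNAP91 and VEGFA. The 179 genes higher in the RA had a median of 0.22 in the RV and 0.89 in the RA. The 151 lower genes had medians of -0.24 and -0.60. As these genes were chosen for passing in the RA, the choice favours a larger atrial median. In the RV, 84.4% of the higher genes lay above 0, against 47% of all genes. Of the lower genes, 88.7% lay below 0 there, against 52.7% of all genes. The RV count was 11 with all 18 arrays, and with 1 RV array left out it lay between 4 (without RV control 2) and 191 (without RV 2-week array 2).

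**Figure D5:**
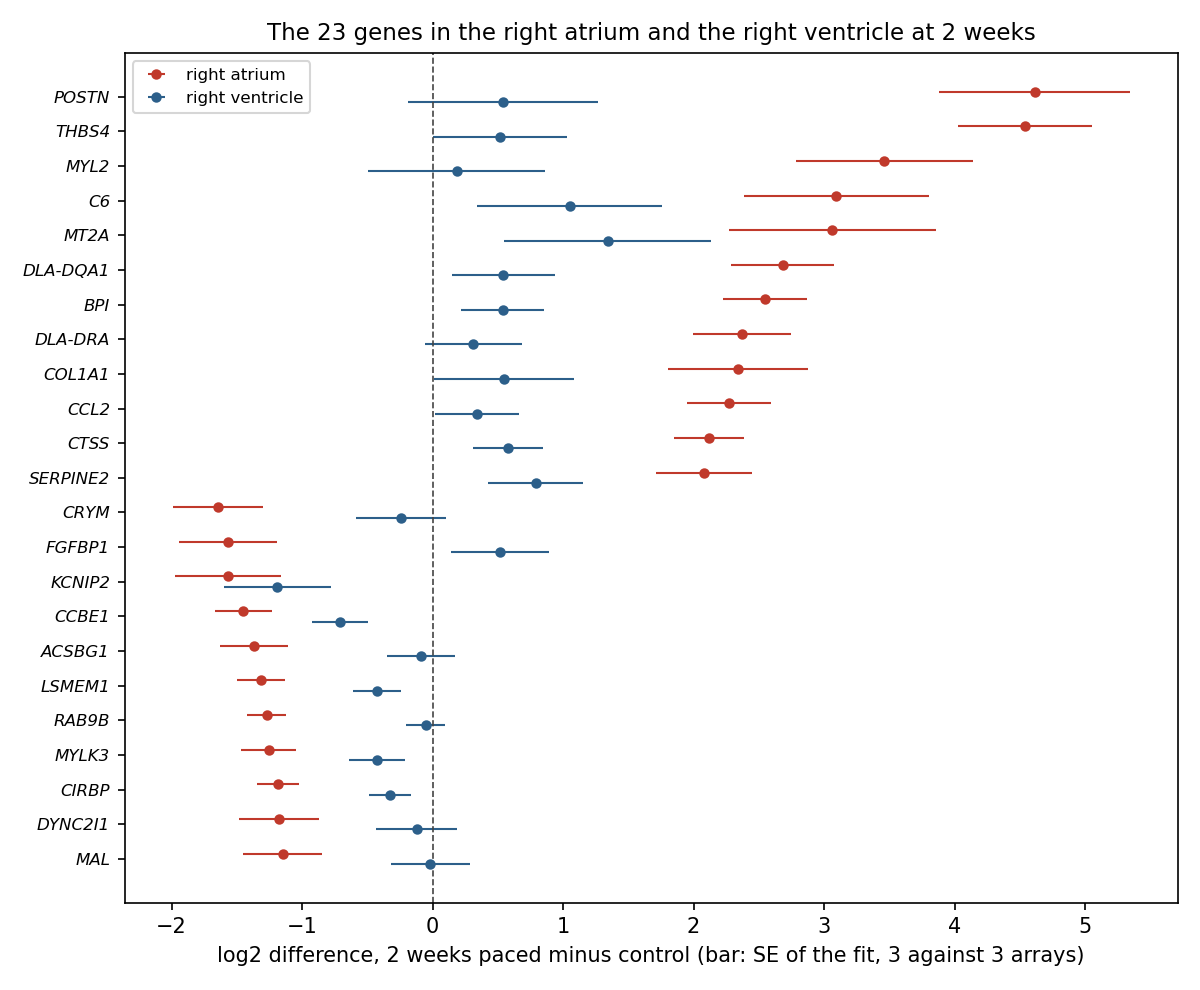
Log2 difference at 2 weeks minus control (x axis) for the 23 named genes with the largest atrial rises and falls (y axis), in the RA (red) and in the RV (blue), with the standard error of the fit from 3 against 3 arrays. The genes were chosen for their atrial values. POSTN differs by 4.61 in the RA and 0.54 in the RV, and KCNIP2 by -1.57 and -1.19.

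The difference between the chambers was tested itself, as the atrial effect minus the ventricular effect. No gene passed in either direction (0% of 10988), although 714 had an unadjusted p under 0.05. With condition and number as a random block 0 passed as well, and 748 had an unadjusted p under 0.05. The lowest adjusted p was that of DLA-DMA (0.0892), which differed by 1.37 in the RA and -0.57 in the RV. THBS4 had a difference between effects of 4.03 (SE 0.73, adjusted p = 0.137), POSTN of 4.08 (SE 1.03, adjusted p = 0.279) and MYL2 of 3.28 (SE 0.96, adjusted p = 0.347). MYOZ1 (-0.98 and 0.71) and MYOM2 (-1.13 and 0.38) had opposite signs in the chambers, at adjusted p = 0.195 and 0.313 for the difference. The array left out mattered here too: 1 gene passed without RA control 3 (ACTA1), 9 without RA 2-week array 2 (THBS4, BPI, TOP2A, KLHL5, CLEC12A, CTSC, DLA-DMA, DLA-DQB1 and HLA-DRB1) and 12 without RV 2-week array 2. DLA-DMA and KLHL5 passed in both of these last fits.

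The RA at 5 weeks was compared with 2 weeks using the 2 late arrays that carried atrial markers. No gene passed in either direction (0%), while 937 had an unadjusted p under 0.05. With 1 array left out, 1 gene was lower without 2-week array 2 and 4 were higher without RA late 2. POSTN stood at 9.68 and 5.80 in the late arrays (late minus early -1.07, adjusted p = 0.717) and THBS4 at 11.04 and 8.31, the 2 late arrays standing well apart for both genes. CTSS (11.67 and 10.98) and MYL2 (10.99 and 10.59) stayed at the 2-week level in both. MYLK3 was 10.92 and 12.05, the second within 0.02 of the lowest control. Against the same 3 controls, 114 genes were higher (1.04%) and 24 lower (0.218%) at 5 weeks. As both stages share these controls, the likeness of their lists was not tested. The late mean lay on the control side of the 2-week mean for 116 of the 179 higher and 140 of the 151 lower genes. Choosing the genes at 2 weeks favours such a count.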

How the data were processed

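Total RNA of 18 samples was measured on Affymetrix Canine_2 arrays. The authors deposited log2 signals per probe set, and the submitters' processing notes name MAS5, with version, scale and target not given in the sources used here. The log2 scale was read from the values. No further normalization was applied, and the number of arrays limits precision. Gene symbols came from the platform annotation: 29254 probe sets had a single symbol, 439 several and 13231 none. No sequence or coordinate is printed.

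The test was limma 3.58.1 under R 4.3.3, fitted to all probe sets kept, with 1 mean per group over 17 arrays (11 residual degrees of freedom) and a trended variance prior. The library labelled RA late 3 was left out because its chamber markers lay at the RV level. Tests were two-sided, with Benjamini-Hochberg adjustment over 25752 probe sets and a threshold of 0.05. Differences are on the log2 scale, and SE is their standard error in the fit. The fit was run on simulated data with independent noise, drawn with the variances that it had itself estimated. Those data lack shifts shared by many genes of an array, so they cannot show how the fit handles such shifts. Between any 2 arrays at most 2.5% of values were identical.

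There were 43 pathway and 16 cell marker lists with 1883 genes, of which 1341 were tested. The comparison, the lists and the named genes were chosen with earlier results of these data known. Named were up to 12 genes with the largest difference in each direction among those that passed without overlap, up to 4 members of smallest p of each list described, and a fixed set of stress, matrix and channel genes. Other list members are given by value to show what did not pass, and genes of the set that passed in every fit by name; these were picked after their values were seen. Genes with only a locus number are counted. Replicate numbers did not pair RA control with RA 2-week arrays: the correlations of deviations were -0.06, 0.00 and -0.01 for equal numbers. Equal numbers did go together between the RA and RV, at 0.15 to 0.42 in controls and 2-week arrays, which comes from the data as the labels name no animal; at 5 weeks the values were 0.05, -0.42 and 0.15. Alternatives were other arrays in the fit, filters, normalizations, probe set rules, variance models, a replicate block, and leaving out each array. Figures were drawn with matplotlib 3.10.9.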

Additional observations from a re-analysis of the deposited data

How the results depend on the processing

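The 330 genes of the RA at 2 weeks became 82 with all 18 arrays and 81 with the 8 RA arrays of all stages alone. Array weights gave 539 (204 higher, 335 lower), with the lowest weight on RA 2-week array 1 (0.344), so the share of higher genes was 37.8% in place of 54.2%; with 18 arrays it was 39%. The other planned filters, normalizations, probe set rules and variance models gave 248 to 468, and leaving out 1 array 91 to 311. With the number as a fixed replicate block between RA control and 2-week arrays the count was 300 (167 higher, 133 lower, 285 shared), and with number and condition as a random block over the chambers 333 (RV 59). The RV count of 58 became 11 with 18 arrays, 117 after quantile normalization and 200 with array weights, and 4 to 191 with 1 array left out. The difference between chambers had 0 calls, but 2 after quantile normalization (DLA-DMA and KLHL5), 17 with array weights and 0 to 12 with 1 array left out. Late against early had 0 calls in the other settings, and 0 to 4 with 1 array left out. ARPC1B differed by -0.137 when probe sets that may cross-hybridise were left out, because another probe set then stood for it; no other named gene changed sign with its call. The other causes were not tested. Signals below 5.31 lie near background, which limits the size of the differences of POSTN, C6 and TOP2A. The controls of THBS4 (5.46 to 5.76), CXCL16 (5.33 to 5.56) and CLEC12A (5.64 to 5.78) lie just above this limit. The size of their differences is therefore uncertain too.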

Other observations

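A run of neighbouring proteoglycan genes was looked at after its values were seen. EPYC, KERA, LUM and DCN, small leucine-rich proteoglycans that bind collagen fibrils, follow one another with no other protein-coding gene between them in the RefSeq annotation of UU_Cfam_GSD_1.0. EPYC, epiphycan, a gene known from cartilage, rose from 6.90, 7.08 and 7.72 in controls to 9.97, 8.45 and 9.32 (2.01, SE 0.39, adjusted p = 0.012). KERA, keratocan, known from the cornea, rose from 8.71, 9.04 and 8.83 to 9.76, 10.09 and 9.95 (1.07, SE 0.18, adjusted p = 0.00494), LUM by 0.93, and DCN, decorin, differed by 0.33 (adjusted p = 0.174). In the RV the differences in the same order were -0.24, 0.97, 0.71 and 0.45. In a second such run ASPN rose by 0.88, and ECM2 (0.12), OMD (1.02, adjusted p = 0.101) and OGN (0.64, adjusted p = 0.173) did not pass.

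Several genes that passed in every fit with 1 array left out lie outside the lists. CLEC12A, a receptor of myeloid cells, rose from 5.64, 5.67 and 5.78 to 8.49, 6.80 and 7.74 (1.98, SE 0.32, adjusted p = 0.00476). CLU, clusterin, an extracellular chaperone that also restrains complement, rose by 1.70 (SE 0.30), and LMO2, a regulator of blood and vessel genes, by 1.38 (SE 0.23). NMB, the peptide neuromedin B, was among the tightest falls, from 8.66, 8.69 and 8.59 to 7.76, 7.73 and 7.79 (-0.89, SE 0.12, adjusted p = 0.00175). RPL3L, the form of a ribosomal protein that is limited to striated muscle, fell from 10.25, 10.34 and 10.12 to 9.60, 9.42 and 9.55 (-0.71, SE 0.11, adjusted p = 0.00385), whereas none of the 50 cytosolic ribosomal genes passed. HPGDS, a prostaglandin D synthase on the mast cell list, was not such a gene. It read 8.99, 9.52 and 9.14 against 7.43, 8.21 and 7.61 (-1.47, SE 0.41, adjusted p = 0.0613). HPGDS passed in none of the 6 fits with 1 array left out.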
